A study of Drosophila melanogaster with 4 samples.

Results

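Closely spaced Su(Hw) regions on the autosomal arms 2L, 3L and 3R are narrow enriched regions with another enriched region close by on the same arm. They were chosen by position and width from the series' combined region list: a width under 3500 bp, and a midpoint within 5000 bp of the nearest other enriched midpoint. The 2 Mb next to each centromere and the Hox stretches of 3R (3R:2480000-2830000 and 3R:12475000-12810000) were left out. This gave 1046 regions of the 5892 enriched regions in all (17.8%), or 34.7% of the 3013 narrow regions in the zones kept. The remaining 1967 narrow regions of these zones, called isolated below, and the 375 regions of 3500 bp or more, called wide, serve as comparison.

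The data come from ChIP-seq of Su(Hw) in embryos of Drosophila melanogaster of the wild-type strain Oregon-R, aged 14 to 16 h, fixed with 1.8% formaldehyde. The 4 samples are 2 ChIP samples, made with the antibody SU(HW)-HB, and 2 input DNA samples, all of the same strain, genotype and age with no treatment named in the labels. The labels tie each input to the region list of the ChIP sample with its number, and a further list, deposited for the whole series, is taken here as combining both ChIP replicates. Whole embryos were fixed, so every score is a mixture over tissues. Separate embryo collections are not named in the labels, and the spread between replicates may therefore be technical only.

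Su(Hw) is a zinc-finger protein best known for binding the insulator of the gypsy retrotransposon. There a row of closely spaced copies of its binding motif recruits the cofactors Mod(mdg4) and CP190, and an enhancer on one side of the insulator is kept from a promoter on the other. A pair of gypsy insulators between enhancer and promoter can cancel that block, which is why the spacing of Su(Hw) sites has been of interest. The motif copies of gypsy lie within a stretch far shorter than a region listed here, so the spacing described below is between regions of kilobase width and not between motifs.

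Positions are in FlyBase release 5, per the file headers, and are counted from 1. No genome or annotation of that release was used here, so regions are given without genes or sequence. The score of a region is the authors' enrichment of ChIP over input, for which no source used here states a zero point. Its scale was read as log2 from the values themselves. On that reading, a score difference of 1 within a list is a 2-fold difference in enrichment. The lists may have been normalized separately, and no read counts were used, so the depth behind a score is unknown. Because the members were chosen from the same comparison of ChIP with input that gave the scores, scores, spacing and listing in the replicates are described below with no test. Intervals are 95% exact binomial intervals, which cover counting of regions only and take neighbours as independent.

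The closely spaced regions were most often about 3 kb from their neighbour. Midpoint distances ran from 1284 to 4999 bp, with a median of 3395 bp and quartiles of 2749 and 4124 bp. In bins of 500 bp, the most filled were 3000 to 3500 bp with 199 regions and 2500 to 3000 bp with 192. The next bins out held 169, 163 and 152 regions up to the 5000 bp limit, so no gap in the distances sets the members apart from the isolated regions. Below 2000 bp there were 58 regions. Edge to edge, the members were 1 bp or more from their neighbour, with a median of 1087 bp, and 124 (11.9%) were under 200 bp away. In the list, 0 members touched or overlapped a neighbour, and the narrowest region was 1001 bp wide, so the shortest midpoint distances were between narrow regions.

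**Figure D1:**
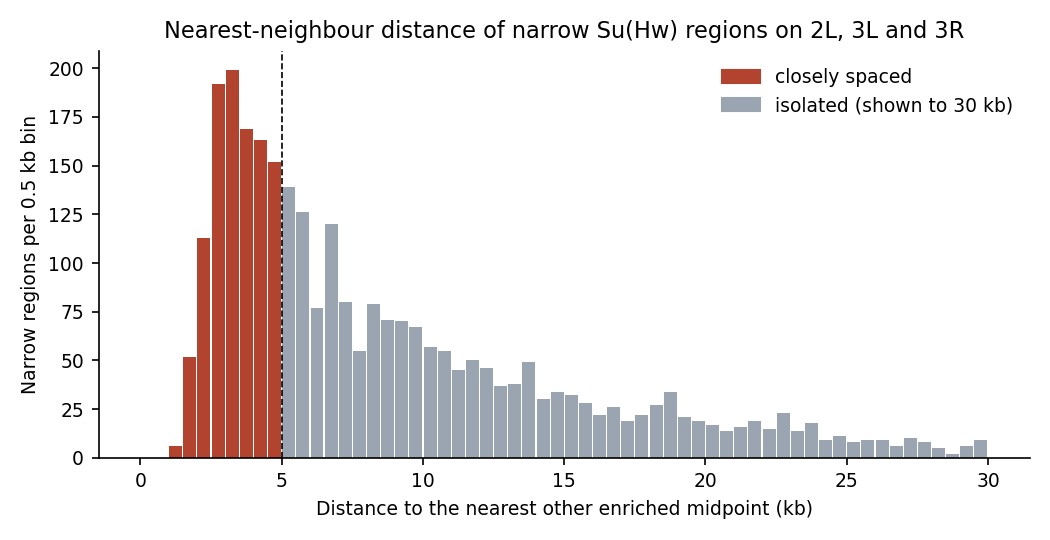
Number of narrow Su(Hw) regions on 2L, 3L and 3R (y axis) in bins of 0.5 kb of the distance to the nearest other enriched midpoint (x axis, kb, shown to 30 kb), with closely spaced regions in red and isolated ones in grey. The bars are highest at 2.5 to 3.5 kb, with 192 and 199 regions, and run without a gap across the dashed line at the 5 kb limit.

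Regions on either side of the limits were as follows. The 3 members just inside were 3R:13979832-13981684 and its neighbour 3R:13984444-13987070, 4999 bp apart with combined scores of 0.21 and 1.70, and 2L:15745612-15746812 at 4997 bp with 0.31. The 3 regions just outside were the neighbours 3R:7652906-7656024 and 3R:7658388-7660556, 5007 bp apart with scores of 1.89 and 1.13, and 3R:22632926-22634918 at 5009 bp with 0.32. At the width limit, the widest members were 2L:14031476-14034974 (3499 bp, score 2.29), 2L:7418928-7422422 (3495 bp, 1.67) and 3R:22813556-22817040 (3485 bp, 0.37). The narrowest wide regions with a neighbour as close were 3R:15788650-15792154 (3505 bp, score 1.50), 3L:20402594-20406108 (3515 bp, 2.10) and 3L:17758748-17762268 (3521 bp, 2.19).

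Arm 3R held the most closely spaced regions. It had 470, against 307 on 3L and 269 on 2L, which is 18.6, 13.6 and 12.8 per Mb of the length kept. As a share of narrow regions this was 39.1% on 3R (interval 36.3 to 41.9), against 33.6% on 3L (interval 30.5 to 36.7) and 30.0% on 2L (interval 27.0 to 33.1). Over all sequences of the list, 34.9% of narrow regions had a neighbour as close. All enriched regions together were also denser on 3R, with 53.5 per Mb against 46.0 on 3L and 47.6 on 2L. The same rule on arms outside the members, again without the 2 Mb next to the centromere, gave 37.8% on 2R and 38.4% on X, both near the value of 3R. The members' combined scores were close on the 3 arms, with medians of 0.69 on 2L, 0.66 on 3L and 0.64 on 3R.

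Most closely spaced regions came as pairs, and the pairs joined into 495 chains, here runs of neighbouring enriched regions in which each step is at most 5000 bp. Chains of 2 numbered 381 (77.0%) and spanned a median of 5947 bp. There were 93 chains of 3 (18.8%), 14 of 4, 3 of 5 and 4 of 6. The chains held all 1046 members and 90 wide regions. Chains of 3 or more contained 338 members (32.3%). Of the 21 chains of 4 or more, 8 lay on 2L, 5 on 3L and 8 on 3R.

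A chain of 6 on 2L, at 2L:13646506-13663448, showed a regular order of scores that came up in both replicates. Its combined scores were 1.63, 1.14, 0.71, 1.76, 0.94 and 0.61 from left to right, and all 6 regions were found in both replicates. Replicate 1 gave 1.63, 1.06, 0.83, 1.89, 1.05 and 0.74. Replicate 2 gave 1.74, 1.23, 0.59, 1.71, 0.81 and 0.45. In all 3 lists the scores stepped down over the first 3 regions, returned to a high value at the fourth and stepped down again over the last 3.

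The spacing of that chain repeated as well. The fourth region lay 9020 bp from the first. Midpoints of the second and the third region lay 2801 and 5719 bp from the first, and those of the last 2 regions lay 2827 and 5736 bp from the fourth. The first 3 and the last 3 regions thus matched within 26 bp in spacing and within 30 bp in width in the combined list. In the replicate lists they matched within 47 bp in spacing in each, and within 48 bp in width in replicate 1 and 91 bp in replicate 2. In the other 3 chains of 6, the largest such mismatch in spacing was 1519 to 3054 bp. This likeness was noticed in the values, and whether the sequence of this stretch is repeated was not tested.

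The remaining chains of 6 were less regular. On 3R, at 3R:25469884-25490778, the 6 combined scores were 2.44, 0.46, 2.91, 1.99, 0.83 and 1.96, with 2.65, 0.34, 2.69, 1.96, 0.83 and 1.91 in replicate 1 and 2.46, 0.62, 3.22, 2.20, 0.86 and 2.02 in replicate 2. All 6 regions of it were found in both replicates, and the order from strongest to weakest was the same in the 3 lists. This chain and the regular one on 2L were the only chains over 4 regions in which each region was found in both replicates. At 2L:5287796-5308600 the scores were 1.36, 0.30, 0.38, 1.01, 0.27 and 1.89, the last of a wide region, and the second and the fifth region were listed in neither replicate.

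On 3L, the chain at 3L:22306842-22325146 was the most densely covered of these, with regions on 95.8% of its span of 18305 bp. Its combined scores were 1.32, 0.33, 1.64, 2.57, 0.38 and 1.01, and the fourth was a wide region of 6055 bp. Replicate 1 listed 1 region with a score of 2.44 over the third and the fourth, whereas replicate 2 listed 2 regions there, with 1.49 and 2.57. The second and the fifth region, the weakest of the chain, were listed in replicate 1 alone. Among the chains of 5, the first along 2L, at 2L:4423018-4441720, had combined scores of 2.10, 0.90, 0.42, 2.36 and 0.20, and the regions at 0.42 and 0.20 were again listed in replicate 1 alone.

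**Figure D2:**
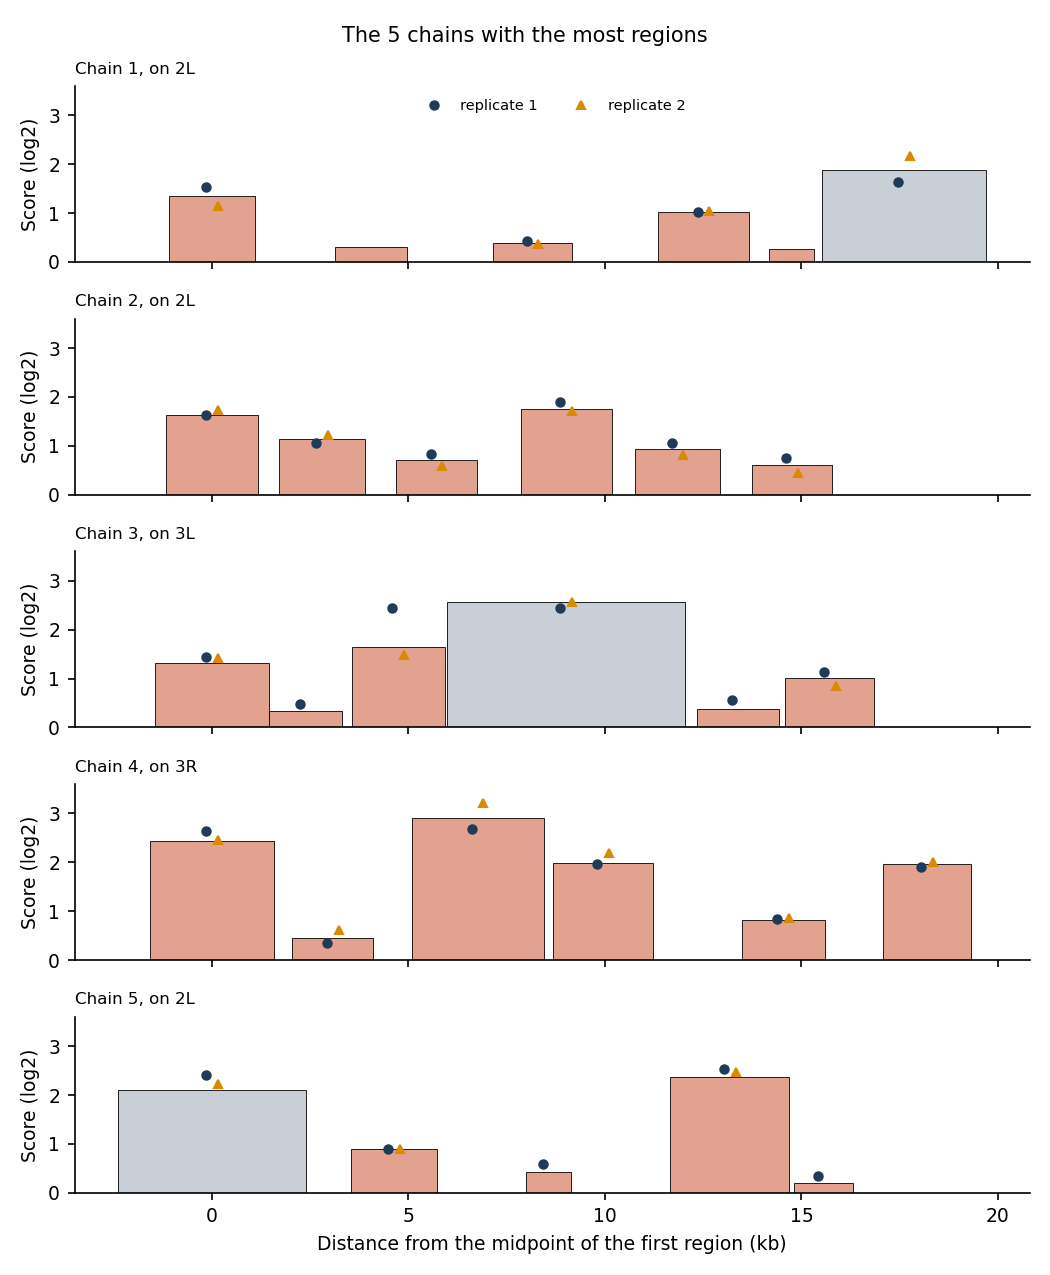
The 5 chains with the most regions, drawn by distance from the midpoint of the first region (x axis, kb), with the score on a log2 scale (y axis). Bars show the combined score and the width of each region, red for closely spaced and grey for wide regions, and points show replicate 1 (circles) and replicate 2 (triangles) where the region was listed; chain 2 shows the same descending order of 3 scores repeated after 9020 bp.

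The 10 best-scoring members found in both replicates each had a weaker nearest neighbour, with combined scores from 0.08 to 2.02. The member with the highest score was 2L:3130496-3133258, at 4.14 when combined, 4.22 in replicate 1 and 4.09 in replicate 2. Its neighbour 2L:3135426-3137770, at a midpoint distance of 4721 bp, scored 0.75, with 0.69 and 0.90 in the replicates. Next came 3L:2165310-2168252 with 3.99, or 4.07 in replicate 1 and 3.96 in replicate 2. Its neighbour 3L:2162830-2165020, only 289 bp away edge to edge, scored 1.11, with 1.20 and 1.06. Both members of both pairs were found in both replicates, and the stronger side was the same in each list.

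On 3R, the region 3R:14622958-14625882 scored 3.90 combined, 3.84 in replicate 1 and 4.05 in replicate 2, beside 3R:14619866-14622660 with 0.46, 0.61 and 0.60. The region 3R:26910822-26914112 scored 3.89, with 4.26 and 3.98, and its neighbour, 1081 bp wide, scored 0.33 and was in neither replicate list. At 2L:2854228-2856918 the scores were 3.80, 3.77 and 3.84, beside a neighbour at 0.08 that replicate 2 alone listed, with 0.17. That the neighbours of the 10 were weaker is likely from their place at the top of the list, and it is given as a description.

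The other 5 of these 10 were 3R:2030552-2033698, 3L:14204396-14206812, 3R:3332466-3335862, 3R:21578438-21581644 and 3R:10647492-10650310, with combined scores of 3.55, 3.50, 3.47, 3.40 and 3.36. Their nearest neighbours scored 0.21, 0.30, 0.18, 2.02 and 0.51. Only 3R:21578438-21581644 had a nearest neighbour above 2, at 3R:21574734-21577416, at 2.02 combined, 2.07 in replicate 1 and 2.09 in replicate 2. On its other side, 3R:2030552-2033698 also had a wide neighbour with a combined score of 3.33, at a midpoint distance of 3786 bp. Over the 10 regions, replicate 2 minus replicate 1 ran from -0.43 to 0.26. By arm, 6 of the 10 lay on 3R, 2 on 2L and 2 on 3L.

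As a group the members spanned much the same combined scores as isolated regions, with a somewhat lower median. The median was 0.66 (quartiles 0.31 and 1.59) against 0.84 (0.33 and 1.73) for isolated regions and 2.08 (1.49 and 2.56) for wide ones. A score over 1 was held by 423 members (40.4%) and 892 isolated regions (45.3%), and a score over 2 by 157 (15.0%) and 369 (18.8%). When the same rule was applied within each replicate list, the medians were 0.98 for close and 1.07 for isolated regions in replicate 1, and 1.20 and 1.33 in replicate 2. The gap thus had the same direction in the 3 lists and was widest in the combined list, at -0.17, against -0.082 in replicate 1 and -0.13 in replicate 2. Members were about as wide as isolated regions, with medians of 2164 and 2199 bp. Across the 1046 members score and width went together (Pearson's r 0.714, Spearman's rho 0.833), as both come from the same signal.

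The lower median came with the shortest distances. The 171 members whose neighbour was within 2500 bp had a median combined score of 0.34, against 0.80 for the 875 members beyond that distance. Without the 171, the gap to isolated regions was -0.040. Applied within the replicate lists, the same division gave medians of 0.52 and 1.02 in replicate 1, where 93 close regions were within 2500 bp, and 0.64 and 1.24 in replicate 2, where 60 were. From 2500 to 5000 bp the medians by bin of 500 bp lay between 0.75 and 0.89, and isolated regions at 5000 to 7500 bp had 0.88. Isolated regions were not uniform either: the 352 at 20000 to 50000 bp had a median of 0.57, and 67.9% of them were found in both replicates. The division at 2500 bp was chosen after the values were seen. Width moved with it: the median was 1799 bp up to 2500 bp and 2195 bp beyond. As members did not overlap their neighbours, the 2 widths of a pair within 2500 bp average less than 2500 bp. Narrower members scored lower, so a lower median at these distances was likely from the division itself. It is given as a description, and the part of width in the scores was not tested.

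Fewer closely spaced than isolated regions were found in both replicates. By an overlap of at least 1 bp, 713 of 1046 members were in both replicate lists (68.2%, interval 65.2 to 71.0), against 73.5% of all enriched regions of the combined list, 74.5% of isolated regions (72.5 to 76.4) and 99.7% of wide regions. A further 108 (10.3%) were in replicate 1 alone and 52 (4.97%) in replicate 2 alone. Neither replicate listed 173 members (16.5%), against 12.9% of all enriched regions and 10.8% of isolated ones. The shares in both replicates were close on the arms, at 69.1% on 2L, 68.7% on 3L and 67.2% on 3R.

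The shortfall, too, was at short distance. Within 2500 bp, 73 of 171 members (42.7%, interval 35.2 to 50.5) were in both replicates, against 640 of 875 (73.1%, 70.1 to 76.1) beyond it. Score went with listing in the same way among members and isolated regions: with a score of 0.5 to 1, 95.3% of members and 96.6% of isolated regions were in both replicates, and with 1 to 2 they were 99.6% and 99.0%. The shares stood apart in the band from 0.25 to 0.5, at 35.0% of 300 members (29.6 to 40.7) and 46.3% of 471 isolated regions (41.7 to 50.9). In that band, members within 2500 bp of a neighbour were at 19.0% (n = 79) and those beyond at 40.7% (n = 221).

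Region width was tied to listing as well. The narrowest regions of the replicate lists were 1301 and 1303 bp wide, whereas the combined list went down to 1001 bp. Of the 112 members narrower than 1301 bp, 0 were in both replicates (upper bound of the interval 3.24%), and the same held for 0 of 152 such isolated regions. Among members of at least that width, 76.3% of 934 (73.5 to 79.0) were in both, against 80.7% of 1815 isolated regions (78.8 to 82.5). Within 2500 bp the share among members of this width was 57.9% of 126 (48.8 to 66.7), and beyond it 79.2% of 808 (76.2 to 82.0). How much of the lower share comes from width was not tested.

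**Figure D3:**
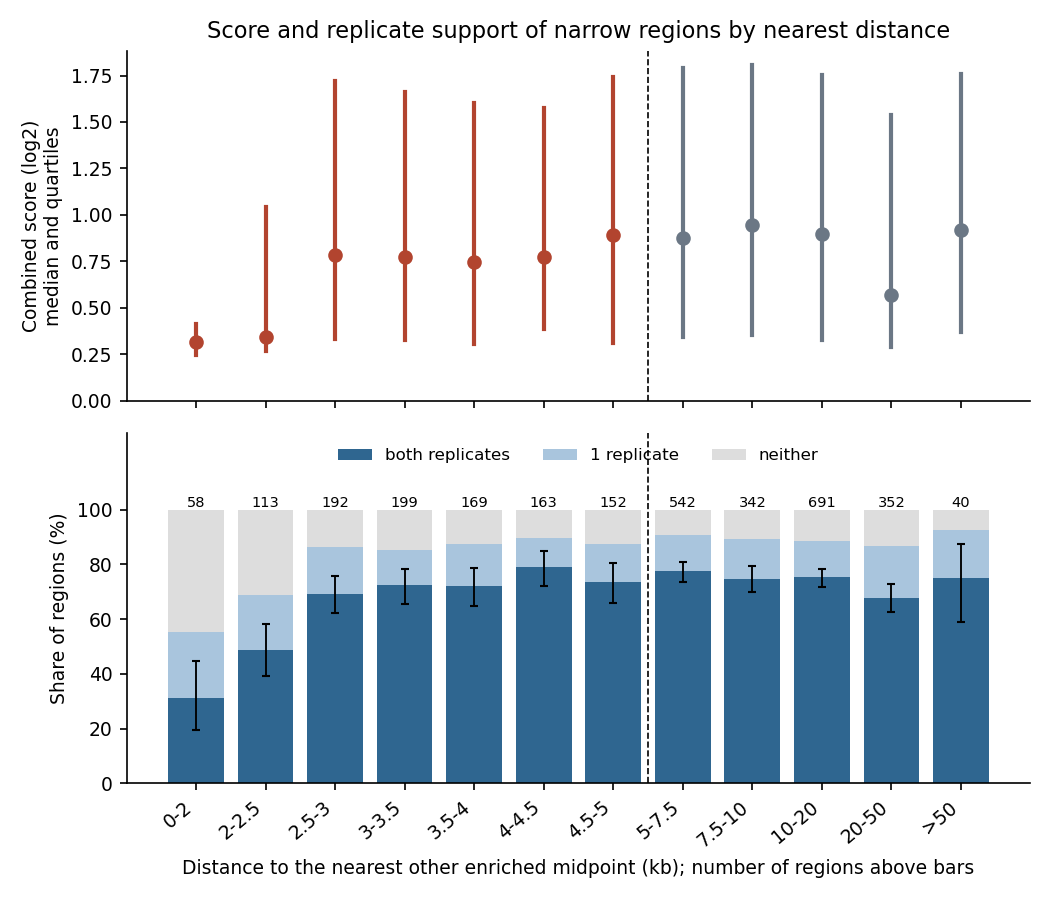
Narrow regions of 2L, 3L and 3R by distance to the nearest other enriched midpoint (x axis, kb; the dashed line marks the 5 kb limit and numbers above the bars count regions). Top, median combined score with quartiles on a log2 scale; bottom, share found in both replicates (dark, with 95% exact interval), in 1 (light) and in neither (grey), which is lowest for both in the 2 bins up to 2.5 kb, at 31.0% and 48.7%.

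Neighbouring pairs joined a strong and a weak region more often than 2 strong ones. There were 639 pairs of neighbouring regions within 5000 bp with at least 1 member, of which 546 joined 2 members and 93 a member and a wide region. In 359 pairs (56.2%) 1 region scored over 1 and the other did not, in 93 (14.6%) both did and in 187 (29.3%) neither did. For 1427 pairs of adjacent isolated regions, a median of 17726 bp apart, the shares were 46.2%, 21.7% and 32.1%. The stronger region of a member pair had a median combined score of 1.57 and the weaker 0.35, against 1.51 and 0.36 in the isolated pairs. A difference of over 1 was found in 284 member pairs (44.4%), against 43.4% of all such pairs of the series and 39.0% of the isolated pairs. Left and right scores of a pair had a Pearson's r of -0.128 over the 639 pairs, some of which share a region, against 0.061 over the isolated pairs. The values of the 639 pairs include wide regions, and those of the isolated pairs do not. Over the 546 pairs of 2 members, 41.8% differed by over 1, r was -0.090, and the stronger and weaker medians were 1.42 and 0.34. For the 93 pairs with a wide region, 60.2% differed by over 1 and r was -0.399. Wide regions had a median score of 2.08 against 0.66 for members, and either kind could lie on the left. Large differences and a negative r were thus likely in these 93 pairs from the choice of members. They also enter the values of the 639 pairs.

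Members beside a wide region were mostly the weaker side. The nearest neighbour was wide for 71 members, whose median combined score was 0.40, against 0.70 for the 975 with a narrow neighbour. In 59 of the 71 (83.1%) the wide neighbour scored higher, and the neighbours had a median of 2.01. Wide regions in general had a median of 2.08, against 0.66 for members. The rule sets members apart from wide regions by width, and score went with width. A stronger wide side was therefore likely from the choice of members, and it is given as a description. Of the 71, 56.3% (interval 44.0 to 68.1) were found in both replicates, against 69.0% (66.0 to 71.9) of the 975.

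Of the 5 pairs with the largest difference, 3 joined a member and a stronger wide region, and 2 joined 2 members. The wide region 3R:27282298-27286666 scored 4.77 combined, 4.91 in replicate 1 and 4.98 in replicate 2, while its neighbour 3R:27287550-27289312 scored 0.29 and was in neither replicate list. At 3L:22447338-22451028 the scores were 4.24, 4.56 and 4.44, beside 3L:22453306-22454784 with 0.11, listed in replicate 1 alone with 0.31. The third and the fourth pair by difference, both of 2 members, were those of 2L:2854228-2856918 and 3R:26910822-26914112 given above. In the fifth, both regions were in both replicates: 2L:7529284-7531152 scored 0.18, 0.27 and 0.42, and the wide region 2L:7532600-7536904 scored 3.67, 3.72 and 3.82.

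In contrast, the pairs with the nearest midpoints joined 2 weak regions. The nearest were 3R:18463892-18465016 and 3R:18465094-18466382, 1284 bp apart, with combined scores of 0.25 and 0.24 and no listing in either replicate. At 3R:17071890-17073532 and 3R:17073592-17074736 (1453 bp) the scores were 0.10 and 0.35, and at 3L:4625164-4626366 and 3L:4626602-4627858 (1465 bp) they were 0.27 and 0.26. In each of these 2 pairs replicate 1 listed the left region, with 0.29 and 0.33, and replicate 2 listed neither. The fourth pair, 3R:14989590-14990768 and 3R:14991062-14992448 (1576 bp), scored 0.29 and 0.18 and was in neither list. In the fifth, 3R:10564666-10565726 and 3R:10565850-10567728 (1593 bp), with 0.34 and 0.14, both replicates listed the right region alone, at 0.21 and 0.28. None of these 5 pairs was listed as 2 regions in a replicate. As members did not overlap their neighbours, midpoints this near lie between narrow regions. Members narrower than 1301 bp, the least width in either replicate list, had a median combined score of 0.32. Low scores and missing listings were thus likely for the nearest pairs, and both are given as a description.

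The replicates resolved about as many pairs as they left incomplete, and almost never merged one. In 302 of 639 pairs (47.3%, interval 43.3 to 51.2) both replicates listed 2 separate regions, against 45.4% of all such pairs of the series. Replicate 1 did so in 398 (62.3%) and replicate 2 in 345 (54.0%). A merged region over both sides was found in 3 pairs in replicate 1 and 1 pair in replicate 2. In the other pairs 1 side or both were missing. Replicate 1 listed 1 side in 214 pairs, which was the stronger side in 188 (87.9%), and neither side in 24. Replicate 2 listed 1 side in 249 pairs, the stronger in 236 (94.8%), and neither side in 44. By distance, 8 of the 88 pairs within 2500 bp (9.09%, 4.01 to 17.1) were separate in both replicates, against 294 of 551 (53.4%, 49.1 to 57.6) beyond it. Neither replicate list held a region narrower than 1301 bp. Of the 45 members under that width within 2500 bp of a neighbour, 0 were in both replicates. Fewer separate pairs were thus likely at short distance, and how much goes with width was not tested.

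Where both replicates resolved a pair, they ordered it alike in most cases. Of 299 such pairs with unequal scores in both, the stronger side was the same in 273 (91.3%). With a combined difference over 0.5 it was the same in 196 of 197, and with a smaller difference in 77 of 102 (75.5%). The combined list is taken as covering the same libraries, so a large combined difference favours pairs that both replicates order alike. The division by combined difference is therefore given as a description. The difference between right and left region correlated between the replicates with a Pearson's r of 0.935 over the 302 pairs, which are pairs of regions in the same libraries and not independent samples. The median size of the difference was 0.70 in replicate 1 and 0.81 in replicate 2.

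Seen from single regions, 495 members (47.3%, interval 44.3 to 50.4) were found in both replicates and had a neighbour within 5000 bp in each replicate list too. Their median combined score was 1.14, against 0.34 for the other members. The others include every member not found in both replicates, with medians of 0.25 to 0.30 by kind of listing. A lower median was thus likely for them from the division itself. All 713 members found in both replicates had a median of 1.24. Of the members that replicate 1 listed, 658 of 821 (80.1%) had a near neighbour there, and in replicate 2 it was 581 of 765 (75.9%). Among isolated regions this was so for 19 of 1662 in replicate 1 and 15 of 1557 in replicate 2. Members and isolated regions were divided by this same distance in the combined list, taken as covering the same libraries. The contrast between them thus follows largely from the rule. The rule gave 778 close regions within replicate 1 and 677 within replicate 2, or 29.1% and 27.2% of narrow regions.

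**Figure D4:**
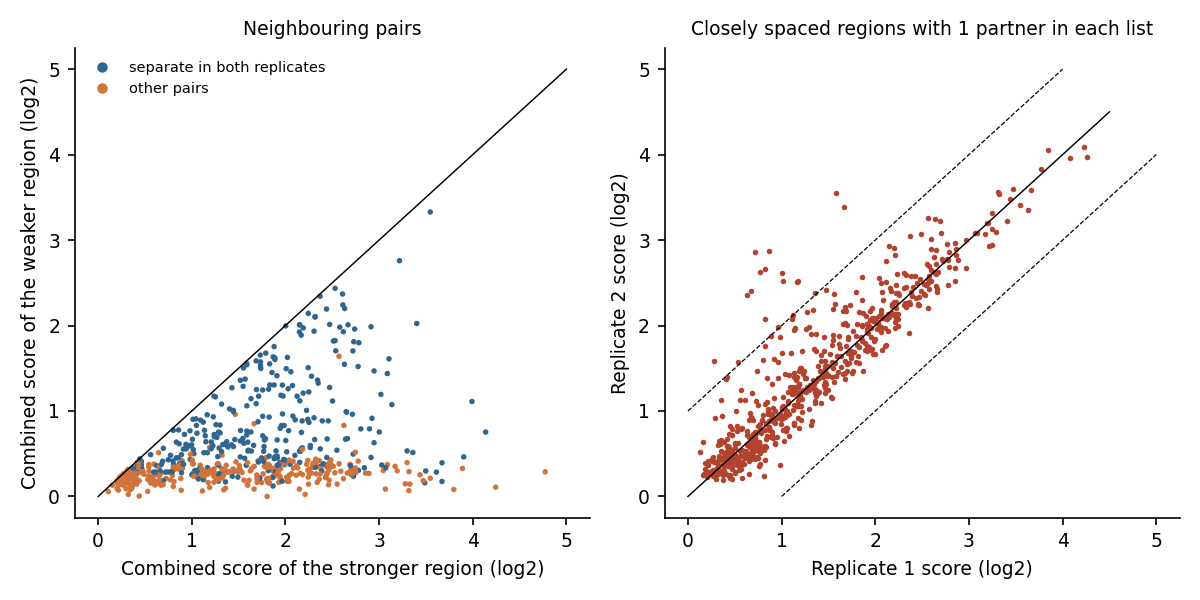
Left, combined scores (log2) of the stronger (x axis) and the weaker region (y axis) of the 639 neighbouring pairs, in blue where both replicates listed 2 regions and in orange otherwise. Right, replicate 1 (x axis) against replicate 2 scores (y axis, log2) of the 647 closely spaced regions with 1 partner in each list; the dashed lines mark a difference of 1, with 18 regions above the upper line and 0 below the lower.

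Scores of the replicates were close at most members. There were 647 members with 1 partner in each replicate list and midpoints within 250 bp, and their median was 1.17 in replicate 1, or 1.28 in replicate 2. The difference, replicate 2 minus replicate 1, had a median of -0.0006 and an SD of 0.36 over regions, against 0.0056 and 0.40 at 1373 isolated regions. Replicate 2 was over 1 higher at 18 members (2.78%), against 4.25% of the 3790 such regions of the whole list and 4.44% of isolated regions. Replicate 1 was over 1 higher at 0 members, and at 0% of the whole list. The replicates' scores had a Pearson's r of 0.910 and a Spearman's rho of 0.904 across the 647 members.

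The members furthest apart were high in replicate 2. The region 3R:6136354-6139056 scored 0.72 in replicate 1 and 2.86 in replicate 2, with 2.00 in the combined list. At 3L:1837904-1840974 the scores were 0.86 and 2.87 (combined 2.00), and at 2L:18511964-18514644 they were 1.58 and 3.55 (combined 2.75). In the other direction the differences were smaller: 3L:6177036-6179112 had 0.98 in replicate 1 and 0.36 in replicate 2, 3R:21436968-21439052 had 0.81 and 0.24, and 3R:4302474-4305434 had 1.31 and 0.84. Of the 18 members over 1 higher in replicate 2, 6 had a nearest neighbour that could be compared in the same way. Of these neighbours, 0 were over 1 higher, beside shares of 2.78% of members and 4.25% of the whole list. With 6 neighbours, 0 cannot be told apart from such shares. The median difference at those 6 neighbours was -0.15.

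Members listed in a single replicate or in neither were weak, with few exceptions. Median combined scores were 0.25 for replicate 1 alone, 0.26 for replicate 2 alone and 0.30 for neither, against 1.24 for members in both. They were the weaker side of their nearest pair in 92 of 108, 41 of 52 and 137 of 173 cases, whereas members in both were the weaker side in 268 of 713 (37.6%). The best-scoring members of replicate 1 alone were 3R:20320790-20323100 (combined 0.44, replicate 1 0.61), 2L:4433408-4434530 (0.42 and 0.59) and 3R:26415450-26416742 (0.41 and 0.61). Each of these 3 had a stronger nearest neighbour, at 2.32, 0.90 and 2.78.

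Replicate 2 alone held stronger members: 3L:15259870-15262260 with 1.01 in the combined list and 1.53 in replicate 2, 2L:6155972-6158492 with 0.96 and 1.63, and 2L:6777406-6779504 with 0.66 and 1.36. In neither replicate, 2L:8730452-8731452 scored 2.48 in the combined list at the least width of any listed region, 1001 bp, and was the only such member over 1. It was followed by 3R:2335700-2336732 (1033 bp) with 0.85 and 3R:16974926-16976260 (1335 bp) with 0.83.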

How the data were processed

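Su(Hw) ChIP-seq was represented by 3 region lists, a list for each of the 2 ChIP replicates and the combined list. Per the submitters' processing notes, the authors used Bowtie 0.12.7. How regions were called, thresholded and scaled was not stated in any source used here, and each of these choices could move weak regions in or out of a list. Scores in the deposited lists were read as log2 values; the headers state no scale, and 44, 93 and 73 pairs of scores in the combined, replicate 1 and replicate 2 lists differed by exactly 1 (tolerance 1e-11), against 0 pairs spaced as 2-fold steps would be on a natural or base-10 logarithm. Depth is unknown. Depleted regions (5, 1 and 0) were left out. Distances are between midpoints, a region was found in a replicate at an overlap of at least 1 bp, and of several overlapping regions the best score was taken. Shares have exact binomial intervals, and no test was run. The members and all rules were chosen with earlier results of these data known. Named regions are the 10 best-scoring members found in both replicates, the 5 longest chains, and the 5 nearest and 5 most unequal pairs. Also named are 3 members just inside and 3 regions just outside each limit. The others are the 3 best members of each kind of listing, and the 3 furthest apart between replicates in each direction. The distance and overlap steps were tested on simulated data. Python 3.11.15, numpy 2.4.6, pandas 2.3.3, scipy 1.17.1 and matplotlib 3.10.9 were used. The planned search for the Su(Hw) motif was not run, because no genome of release 5 was used.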

Additional observations from a re-analysis of the deposited data

How the results depend on the processing

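The number of closely spaced regions follows the limits set: 363 at 3000 bp, 1588 at 7500 bp and 1930 at 10000 bp, 677 in the replicate 2 list, 519 among regions found in both replicates and 184 in the better-scoring 50% of the list; the other 6 alternatives gave 731 to 1138. The share found in both replicates was 62.7% with midpoints within 250 bp, 99.3% in the better-scoring 50%, 56.7% at 3000 bp, 72.0% at 10000 bp and 73.1% without regions within 2500 bp of a neighbour; with a replicate left out, it lay between 73.1% and 78.5%. The median score of closely spaced minus isolated regions stayed negative: -0.082 in replicate 1, -0.13 in replicate 2, -0.048 for regions found in both, -0.42 at 3000 bp, -0.029 at 10000 bp, -0.14 against regions isolated beyond 10000 bp and -0.040 without regions within 2500 bp of a neighbour. Pairs separate in both replicates were 39.0% with midpoints within 250 bp and 98.1% with both regions in the better-scoring 50%, and ranged from 54.0% to 62.3% in 1 replicate. The median score difference within pairs was 0.75 in replicate 1 and 0.69 at 3000 bp, against 0.84. The cause of these changes was not tested, other than fewer regions or a looser count by construction. The division at 2500 bp was added after seeing the data. No paired analysis was possible because the inputs enter no fit of their own and no result comes from a test. Depth is unknown, so weak regions missing from a replicate cannot be told apart from regions not bound.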

Other observations

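Along the arms, closely spaced regions were found in each of the 66 complete 1 Mb windows of the zones kept, with 2 to 28 per window and a median of 15, among 26 to 63 narrow regions. The fullest windows were 3R from 14 to 15 Mb and from 21 to 22 Mb, with 28 each, and 3R from 9 to 10 Mb with 27. On 3L, the window from 13 to 14 Mb held 26 among only 40 narrow regions (65.0%), with a median combined score of 1.04, whereas the 26 of 2L from 13 to 14 Mb were among 56 (46.4%), with a median of 0.49. These windows were chosen after their values were seen, and no test was run on them.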
